A study of Mus musculus with 39 samples.

Results

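The nuclear factor I family of transcription factors has 4 members in the mouse genome, Nfia, Nfib, Nfic and Nfix, and the members were taken as the rows of the deposited transcription start site table whose Entrez gene identifier belongs to one of these symbols. All 4 were found, among 24045 identifiers in the table. Nuclear factor I proteins bind DNA as dimers at a palindromic motif whose arms read TTGGC, and can activate or repress the genes they bind. In mouse cerebellar granule cells, Nfia, Nfib and Nfix promote the shift of progenitors out of proliferation and into migration, axon extension and dendrite formation. Nfia is also expressed in glia and is a known inducer of astrocyte development.

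The study profiled 2 histone marks by ChIP-seq in the granule cell lineage of C57Bl/6J mice on postnatal days 7, 12 and 21, written P7, P12 and P21. H3K4me3, trimethylation of lysine 4 of histone H3, is found at the starts of active or poised genes, and H3K27me3, trimethylation of lysine 27, is laid down by Polycomb complexes at repressed genes. A start that holds both marks is called bivalent. The P7 samples were granule cell progenitors enriched on a Percoll density gradient, and the P12 and P21 samples were granule cell nuclei sorted as positive for NeuN and NeuroD1. H3K4me3 was measured in 3 libraries at P7, 2 at P12 and 2 at P21, and H3K27me3 in 5 at P7, 4 at P12 and 5 at P21. No genotype, transgene or drug differed between the stages, and the P12 and P21 chromatin was also sonicated for longer. Stage and isolation method therefore cannot be told apart in any comparison with P7. The labels do not say whether libraries came from separate animals, so the p-values measure the spread between these libraries, which may be technical.

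The summed count at starts was 431401 to 5653193 per H3K4me3 library and 264093 to 2035801 per H3K27me3 library. All levels below are CPM, counts scaled to a common library size with TMM factors, and precision is limited by counting where a member holds only a few counts. The 95th percentile of start counts was 22.1 to 45 times the median in P7 H3K27me3 libraries, 5.65 to 12.9 times at P12 and 5 to 10.3 times at P21. No pair of libraries of a stage and mark differed by less than the sampling noise of their counts, so each was taken as a sample of its own. Of the 12 granule cell lineage markers, 11 were tested in H3K4me3, of which 4 were higher at P21 than at P7 and 6 were lower, beside 9% and 14.4% of all starts. The H3K4me3 log2 fold change of P21 over P7 was 2.76 at Cbln3 and 2.23 at Gabrd, a pair of genes of mature granule cells, and −1.63 at the progenitor gene Atoh1. The named genes do not stand for the whole list. Mean H3K4me3 also fell from 74.6 CPM at P7 to 26.6 CPM at P21 at Zic1, and from 53.4 to 31.2 CPM at Neurod2. Neurod1, the marker not tested, held 0 CPM of both H3K4me3 and H3K27me3 in every library. Among genes with a single start, even those without an H3K4me3 peak had a median of 12.1 CPM at P7 and 21.8 CPM at P21. The 0 at Neurod1 was therefore not read as a level of either mark. The summed H3K4me3 level of the list was 458 to 696 CPM at P7, 521 to 578 CPM at P12 and 472 to 525 CPM at P21.

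The genes lie on 3 chromosomes of the mm10 build. Nfia (Entrez 18027) spans chr4:97578066-98118876, and Nfib (18028) spans chr4:82290173-82506751. Nfic (18029) spans chr10:81396191-81431919, and Nfix (18032) spans chr8:84704712-84801238. Which start of a gene the authors counted is not stated in the sources used. Over 543 genes with a P7 H3K4me3 peak at the 5′-most curated RefSeq start alone, the median count in one P7 library was 375. It was 45 over 181 genes with a peak at the 3′-most start alone and 42 over 335 genes with a peak at neither. The 5′-most start was therefore taken as the counted one, at 97581943 on the plus strand for Nfia, and on the minus strand at 82505779 for Nfib, 81427173 for Nfic and 84800368 for Nfix. This does not hold for every gene in the table, as an Nfia neighbour described further on shows.

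The 250 bases just upstream of 3 starts are printed because the H3K4me3 results differ between these starts and because such promoters differ in CpG content. They are reference sequence from RefSeq (GRCm38.p6, the mm10 assembly), written 5′ to 3′ on the gene's strand, with each CpG dinucleotide in capitals. The windows are chr4:97581693-97581942 on the plus strand for Nfia, chr10:81427174-81427423 on the minus strand for Nfic, and chr8:84773411-84773660 on the minus strand for the internal start cluster of Nfix.
Nfia: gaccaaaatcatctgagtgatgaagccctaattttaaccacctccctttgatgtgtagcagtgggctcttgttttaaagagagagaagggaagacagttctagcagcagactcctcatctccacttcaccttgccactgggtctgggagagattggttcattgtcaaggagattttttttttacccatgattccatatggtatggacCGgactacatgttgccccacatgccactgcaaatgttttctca
Nfic: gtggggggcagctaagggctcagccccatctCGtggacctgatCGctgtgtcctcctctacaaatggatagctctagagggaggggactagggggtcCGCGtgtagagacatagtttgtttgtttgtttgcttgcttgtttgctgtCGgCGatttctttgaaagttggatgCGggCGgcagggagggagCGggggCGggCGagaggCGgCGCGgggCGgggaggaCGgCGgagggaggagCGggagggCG
Nfix: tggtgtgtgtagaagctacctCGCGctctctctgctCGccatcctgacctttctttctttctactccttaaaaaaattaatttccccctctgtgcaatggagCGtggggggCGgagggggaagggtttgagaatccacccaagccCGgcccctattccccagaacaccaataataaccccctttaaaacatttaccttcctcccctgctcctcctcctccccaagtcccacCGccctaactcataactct
The Nfia window holds 1 CpG, the Nfix window 7 and the Nfic window 19, against a median of 6 over 32841 promoters of 27018 genes. Fewer CpG than in the Nfia window were found in 7.86% of those promoters, fewer than in the Nfix window in 53.7% and fewer than in the Nfic window in 80.3%. The 3 printed windows have a GC content of 44.8% for Nfia, 52.4% for Nfix and 63.2% for Nfic, and the median promoter has 52.4%. The nuclear factor I half-site TTGGC, searched on both strands, is in none of the 3 and in 2 of the 3 other Nfix windows on record, while 41.5% of all promoters hold it. The full palindrome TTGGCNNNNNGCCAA, whose arms are that half-site, is in no member window and in 12 of the 32841 promoters (0.0365%). Such a match is a description of letters, not of binding. Nfib has no entry among the promoters used.

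H3K4me3 at the distal start of Nfia was lower at both later stages than at P7, while H3K27me3 there was higher. Nfib kept an H3K4me3 peak at every stage, and its level was lower at P21 than at P7. Nfic did not pass the test in any comparison, and Nfix was lower in H3K4me3 at P12 only. Nfib, Nfic and Nfix held almost no H3K27me3 at their counted starts at any stage, although an upstream annotated start of Nfic lay in H3K27me3 peaks.

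At the Nfia distal start, the H3K4me3 level was 96.3, 57.8 and 46.0 CPM in the 3 P7 libraries, 20.5 and 6.57 CPM at P12, and 18 and 16.5 CPM at P21. Every P12 and P21 library was below every P7 library. The mean was 66.7 ± 26.3 CPM at P7 (SD, n = 3), 13.5 ± 9.84 CPM at P12 (SD, n = 2) and 17.2 ± 1.10 CPM at P21 (SD, n = 2). The Nfia level exceeded that of 71.9% of all starts at P7, 13.5% at P12 and 19.2% at P21. The log2 fold change of P21 over P7 was −2.03 ± 0.36 (SE), 4.07-fold lower (edgeR quasi-likelihood test, Benjamini-Hochberg adjusted p = 2.46e-06). P12 against P7 gave −2.30 ± 0.42 (adjusted p = 1.38e-05), 4.93-fold lower, and P21 against P12 gave 0.28 and did not pass (adjusted p = 1). Counted from the most negative fold change, Nfia was number 35 of 20748 starts at P21 and number 22 at P12. The P12 call rested on one of the P12 libraries, since without P12 replicate 2 the log2 fold change was −1.82 and the adjusted p 0.115.

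H3K27me3 at the same Nfia start was 9.81, 0, 2.93, 4.12 and 10.1 CPM in the P7 libraries, 23.3, 18.7, 23.0 and 10.8 CPM at P12, and 45.8, 26.7, 41.3, 18.7 and 32.8 CPM at P21. All P12 and P21 libraries were above all P7 libraries, and P12 and P21 overlapped. These levels rest on few counts, 19 in all at P7, 63 at P12 and 117 at P21. The mean was 5.40 ± 4.44 CPM at P7 (SD, n = 5), 19.0 ± 5.83 CPM at P12 (SD, n = 4) and 33.1 ± 10.9 CPM at P21 (SD, n = 5). The log2 fold change of P21 over P7 was 2.42 ± 0.40 (SE), 5.37-fold higher, with an edgeR adjusted p of 1.2e-06. P12 against P7 gave 1.58 ± 0.45 (adjusted p = 0.00376), and P21 against P12 gave 0.84 ± 0.34 (adjusted p = 0.193). The P12 call was lost with replicates 3 and later only (1.53, adjusted p = 0.0998). In bulk chromatin, fewer cells carrying a mark and less of it in each cell cannot be told apart.

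The size of this H3K27me3 level can be set beside starts with and without a called peak. Among genes with a single start, those with no H3K27me3 peak at P21 had a median of 16.4 CPM and a 95th percentile of 39 CPM, and those with a peak in all libraries had a median of 182 CPM. Nfia at P21 (33.1 CPM) therefore lay within the range of starts without a peak, and at P7 (5.40 CPM) it was below the P7 median of such starts, 12.3 CPM. The H3K4me3 level of Nfia at P21 (17.2 CPM) was likewise below the median of starts without an H3K4me3 peak, 21.8 CPM, while at P7 (66.7 CPM) it was near the median of those with a peak, 79.1 CPM.

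Nfib had the highest H3K4me3 level of the 4 members at every stage, at 149, 130 and 109 CPM in the P7 libraries, 93.1 and 87.6 CPM at P12, and 76.0 and 81.8 CPM at P21. The P21 and P12 libraries were all below the P7 libraries. The log2 fold change of P21 over P7 was −0.71 ± 0.24 (SE; edgeR adjusted p = 0.0238), and that of P12 over P7 was −0.53 ± 0.26 (adjusted p = 0.124). The P21 call did not hold with library totals alone (−0.50, adjusted p = 0.0687), with scaling trended on abundance (−0.21, adjusted p = 0.618) or among starts with a peak (−0.27, adjusted p = 0.405). It was also lost without P7 replicate 1 (adjusted p = 0.135), P12 replicate 2 (0.0509), P21 replicate 1 (0.15) or P21 replicate 2 (0.133).

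Nfic, the member with the least described role in granule cells, had 71.0, 55.9 and 101 CPM of H3K4me3 at P7, 61.4 and 37.2 CPM at P12, and 50.0 and 73.2 CPM at P21. The stages overlapped, and the log2 fold change was −0.27 ± 0.28 for P21 over P7 (edgeR adjusted p = 0.423) and −0.63 ± 0.32 for P12 over P7 (adjusted p = 0.134). The direction at P21 turned under trended scaling (0.10) and among starts with a peak (0.18).

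Nfix, which like Nfia and Nfib acts in granule cell maturation, had 41.1, 20.5 and 79.7 CPM of H3K4me3 at P7, 20.5 and 13.1 CPM at P12, and 26.0 and 41.2 CPM at P21. P21 overlapped P7, and P12 reached the lowest P7 library. The log2 fold change of P12 over P7 was −1.52 ± 0.42 (edgeR adjusted p = 0.00747), 2.87-fold lower, and that of P21 over P7 was −0.46 ± 0.32 (adjusted p = 0.243). The P12 call was lost under trended scaling (−1.66, adjusted p = 0.0895), among starts with a peak (−1.10, adjusted p = 0.181), and without P7 replicate 3 (−0.98, adjusted p = 0.152), P12 replicate 1 (−1.91, adjusted p = 0.0806) or P12 replicate 2 (−1.33, adjusted p = 0.242).

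In H3K4me3, 2 of the 4 members were lower at P21 than at P7, where 23.4% of the 20748 starts tested were called, 14.4% lower and 9% higher. The median log2 fold change was −0.59 over the members and 0.19 over all starts. At P12 against P7, 2 of 4 were lower, where 14.5% of starts were called, 9.14% lower and 5.35% higher, and the medians were −1.08 and 0.17. These shares rest on single libraries: without 1 library, the starts called at P21 against P7 numbered 658 (without P21 replicate 1) to 11460 (without P7 replicate 2) against 4847 with all, and those at P12 against P7 numbered 71 (without P12 replicate 2) to 8211 (without P7 replicate 2) against 3006. Leaving out any of the 7 libraries moved the P21 count by over 1.5 times. With library totals alone 2510 starts were higher and 1544 lower at P21 against P7, where TMM scaling gave 1867 and 2980 and DESeq2 217 and 2728. P21 against P12 gave 0 called members and 0 called starts (0% of 20748 starts) by edgeR, which had 209 starts at an unadjusted p under 0.05, and 0 by DESeq2, which had 50.

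H3K27me3 at Nfib, Nfic and Nfix stayed at or below 17.6 CPM in all 14 libraries. Nfib averaged 5.32 ± 2.76 CPM at P21 (SD, n = 5) and 6.34 ± 2.21 CPM at P7 (SD, n = 5). Nfic averaged 4.81 ± 7.06 CPM at P21 and 6.03 ± 7.16 CPM at P7, and Nfix 3.72 ± 5.64 CPM at P21 and 7.54 ± 4.50 CPM at P7 (SD, n = 5 each). None of the 3 passed the filter on low counts. Fitted without the filter, their log2 fold changes of P21 over P7 were −0.12 ± 0.60 for Nfib, −0.06 ± 0.68 for Nfic and −0.79 ± 0.64 for Nfix (SE; edgeR adjusted p = 0.891, 0.954 and 0.331). Nfia was thus the 1 member tested. The filter and the call are not independent here. At P7 Nfia held at most 10.1 CPM, so it passed the filter through its P12 and P21 libraries, the same values that give the call. It was called higher in P21 against P7, where 48.9% of starts were called: 25.4% of 18089 starts higher and 23.5% lower (4596 and 4247, or 12533 and 2490 with library totals alone), and in P12 against P7, where 36.4% were called, 14.4% higher and 22% lower. It was not called in P21 against P12, where 3.98% of starts were called, 0.923% higher and 3.06% lower.

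**Figure D1:**
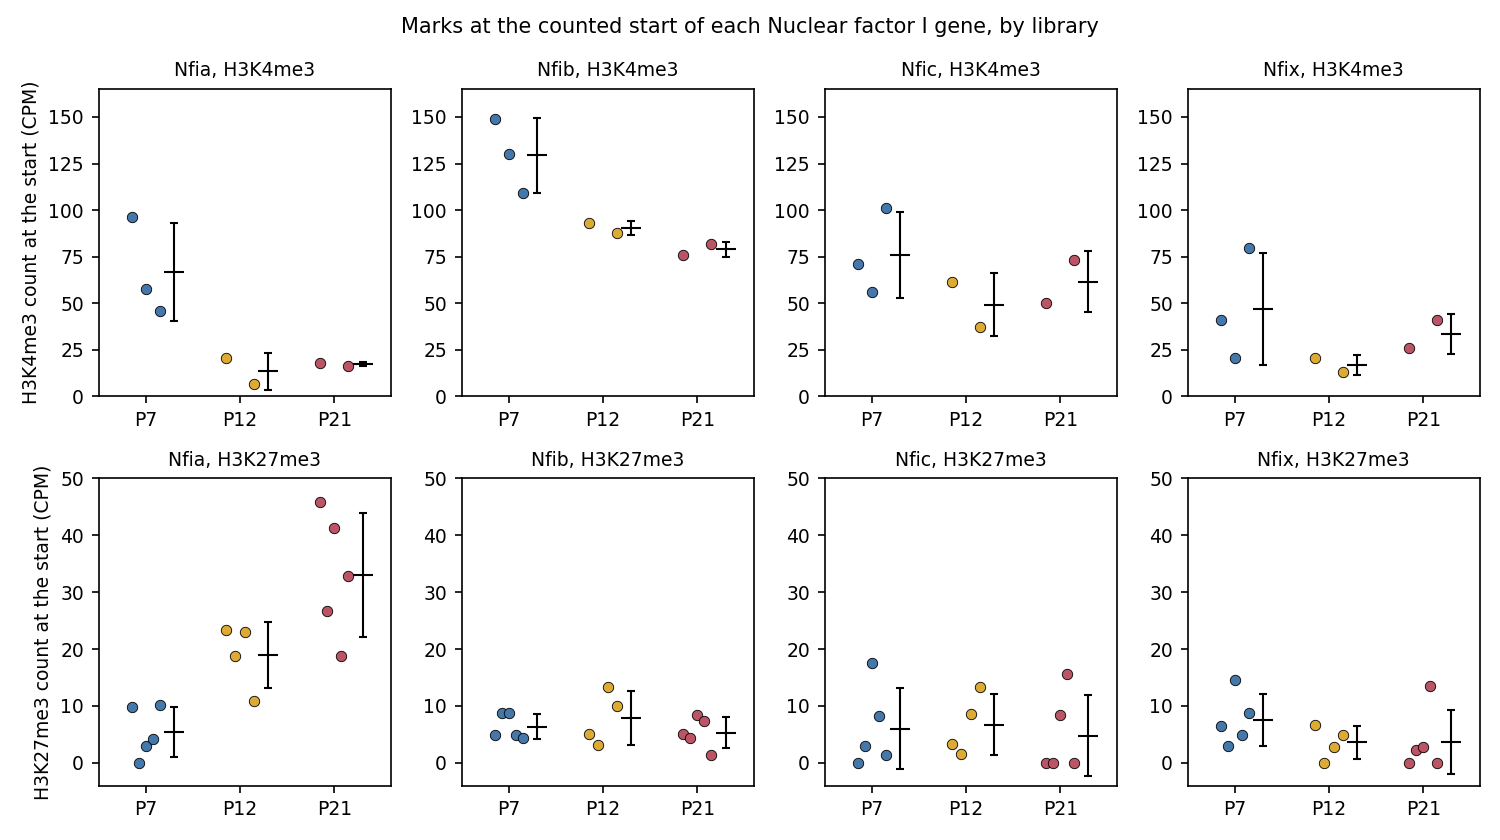
H3K4me3 (upper row) and H3K27me3 (lower row) at the start of each nuclear factor I gene, in CPM, by stage. Points are libraries and bars the mean ± SD; Nfia has its highest H3K4me3 at P7 (66.7 CPM) and its highest H3K27me3 at P21 (33.1 CPM), and the other genes stay near the floor in H3K27me3.

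The H3K27me3 of Nfia was also set against that of the other members in the same library, as a difference of log2 CPM with a prior count of 2. The other members lay near 0 counts, so this difference largely repeats the Nfia values on a scale free of library scaling, and its size depends on the prior count. Nfia minus Nfib averaged 2.18 ± 0.77 at P21 and −0.34 ± 1.23 at P7 (SD, n = 5 each), and the 2 groups of values did not overlap. The stage difference was 2.52 (exact two-sided permutation test over libraries, p = 0.00794, adjusted over 6 pairs p = 0.0476). Nfia minus Nfix differed by 3.21 between P21 and P7 (exact p = 0.0159, adjusted p = 0.0476), and Nfia minus Nfic by 2.65, which did not pass after adjustment (exact p = 0.0476, adjusted p = 0.0952). With a prior count of 0.5 the differences were 3.28 for Nfib, 4.59 for Nfix and 3.77 for Nfic (exact adjusted p = 0.0476, 0.0476 and 0.143). The 3 pairs without Nfia differed by 0.14 to 0.70 with exact adjusted p of 0.286 to 0.818. The Nfib pair was lost without P7 replicate 2, P7 replicate 3 or P21 replicate 5, and the Nfix pair without any of P7 replicates 2 to 5 or P21 replicate 5, each with an adjusted p of 0.0714. For H3K4me3, with 2 libraries against 3, the exact test cannot go below 0.1.

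The peak lists, called by the authors in each library, placed these levels along the genes. At the Nfia distal start, an H3K4me3 peak lay within 1 kb in 3 of 3 libraries at P7, 0 of 2 at P12 and 0 of 2 at P21. An H3K27me3 peak lay there in 1 of 5 libraries at P21 and in none at P7 or P12. At the internal start cluster of Nfia, at 97777608 to 97777834 and 195665 bp downstream, H3K4me3 peaks were present in 3 of 3, 2 of 2 and 2 of 2 libraries, and H3K27me3 peaks in none. Peaks of the internal start spanned 10261, 4809 and 5532 bp at P7, 2152 and 2023 bp at P12, and 2142 and 2572 bp at P21, so every later peak was narrower than every P7 peak, and none was lost. Peaks of the distal start spanned 7084, 3386 and 3515 bp at P7. By the consensus of at least 2 libraries, the distal start was thus marked by H3K4me3 alone at P7 and by neither mark at P12 and P21, and no member start held both marks at any stage. Of 21010 starts classed in the same way, 13.9% held both at P7, 2.38% at P12 and 1.42% at P21.

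The H3K27me3 peaks within Nfia all lay upstream of its internal start. Of the gene, from its distal start to its end with 5 kb on either side, peaks covered 0% in every P7 library, 0, 0, 2.69 and 0.709% in the P12 libraries, and 0, 0, 9.07, 1.01 and 5.31% in the P21 libraries. The mean of 3.08% at P21 against 0% at P7 did not pass an exact two-sided permutation test (p = 0.167). The P21 libraries at 0% were replicates 1 and 2, whose input is shared by the labels and whose lists hold 6440 and 6442 H3K27me3 peaks, against 38421 to 50222 in the others. Between the starts, peaks covered 24.7, 2.90 and 14.4% in P21 replicates 3, 4 and 5, and downstream of the internal start they covered nothing in any library. The longest regions shared by at least 2 P21 libraries were chr4:97622006-97635486, 40.1 to 53.5 kb from the distal start, and chr4:97614750-97619696, 32.8 to 37.8 kb from it. Both are intronic, overlapping no annotated Nfia exon. The libraries of input DNA bear on this coverage: over the same region, peaks of the matching inputs covered 1.33 to 1.83% for P7 replicates 3 to 5, 3.51 and 1.43% for P12 replicates 3 and 4, and 1.67, 1.99 and 0.366% for P21 replicates 3 to 5. Over the gene with its flanks, the share was above that of its own input in P21 replicates 3 and 5 only. Between the starts, it was also above its input in P12 replicate 3 (6.62 against 5.05%) and P12 replicate 4 (2.03 against 1.74%). There it stayed below its input in P21 replicate 4 (2.90 against 3.07%). Overlap with a peak of the library's own input was 1001 bp in P21 replicate 3, 3257 bp in P12 replicate 3 and 0 in the others.

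**Figure D2:**
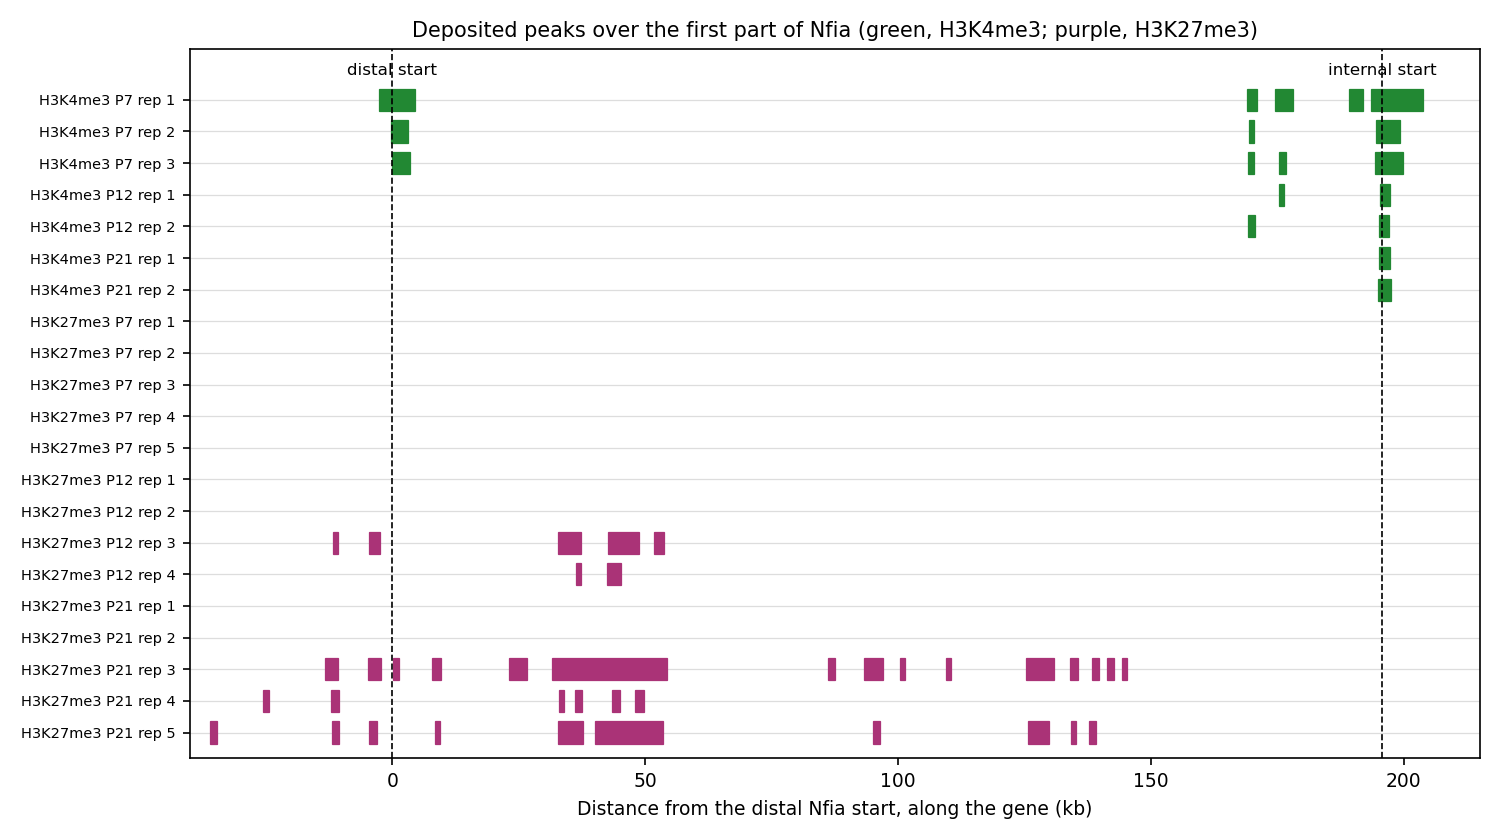
Peaks of H3K4me3 (green) and H3K27me3 (purple) along Nfia in each library, by distance in kb from the distal start, with the distal and internal starts as dashed lines. Of these starts, both carry H3K4me3 peaks at P7 and the internal one alone does at P12 and P21. A few further H3K4me3 peaks lie upstream of the internal start at P7 and P12, between 169 and 192 kb, and none at P21. H3K27me3 peaks appear between the starts in replicates 3 and later of P12 and P21.

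The antisense non-coding gene E130114P18Rik gave a separate reading of the internal start. Its RefSeq start lies 2648 bp from the distal Nfia start, but it also has a GENCODE start at 97778078, 244 bp from the internal one, and its counts followed that GENCODE start. H3K4me3 there was 200, 153 and 217 CPM at P7, 117 and 105 CPM at P12, and 100 and 119 CPM at P21. All P21 and P12 libraries were below all P7 libraries, with a log2 fold change of −0.79 ± 0.23 for P21 over P7 (edgeR adjusted p = 0.00808) that was lost under trended scaling. Its H3K27me3 averaged 3.88 CPM at P7, 5.30 CPM at P12 and 4.13 CPM at P21, and did not pass the filter on low counts.

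The H3K4me3 peak over the Nfib start was among the widest of each P7 and P21 library, but lay below the 99th percentile of widths in both P12 libraries. It spanned 22492, 10669 and 13500 bp at P7, the third widest peak in each of the 3 libraries, which held 12921, 8672 and 11376 peaks. At P12 it spanned 2792 and 3356 bp and ranked 241 and 92, and at P21 it spanned 4302 and 7660 bp and ranked 9 of 6219 and 3 of 10087. The P7 peaks were wider than every later one, and the median width of all peaks was 1258 and 1754 bp at P21 and 1532 to 2278 bp at P7. No H3K27me3 peak lay at the Nfib start in any library. Peaks of input lay there in 0 of 7 inputs at P7, 1 of 5 at P12 and 1 of 6 at P21.

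At the Nfix start taken as counted, H3K4me3 peaks were called in 3 of 3 libraries at P7, 0 of 2 at P12 and 1 of 2 at P21. At the internal cluster from 84772875 to 84774369, they were called in 3 of 3, 1 of 2 and 1 of 2, spanning 6349, 3860 and 5197 bp at P7 and 1001 bp in the P12 and the P21 library that had one. Peaks of input lay at the counted Nfix start in 2 of 7 inputs at P7, 2 of 5 at P12 and 2 of 6 at P21. At the internal Nfix cluster they lay in 1 of 7, 1 of 5 and 2 of 6 inputs. At the counted Nfic start, H3K4me3 peaks were called in 2 of 3, 2 of 2 and 2 of 2 libraries, and peaks of input in 1 of 7, 0 of 5 and 2 of 6 inputs. The GENCODE start of Nfic at 81455635, 28462 bp upstream, was unlike the rest of the family. H3K27me3 peaks lay within 1 kb of it in 5 of 5 libraries at P7, 4 of 4 at P12 and 3 of 5 at P21. In P21 replicates 1 and 2, peaks lay just outside that window, at −27.078 to −24.830 kb and −26.629 to −24.484 kb from the counted start. No H3K4me3 peak lay at this upstream start, while peaks of input alone lay there in 2 of 5 inputs at P12 and 1 of 6 at P21. The nearest curated starts within 20 kb belong to Celf5, the closest of them 17228 bp away.

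**Figure D3:**
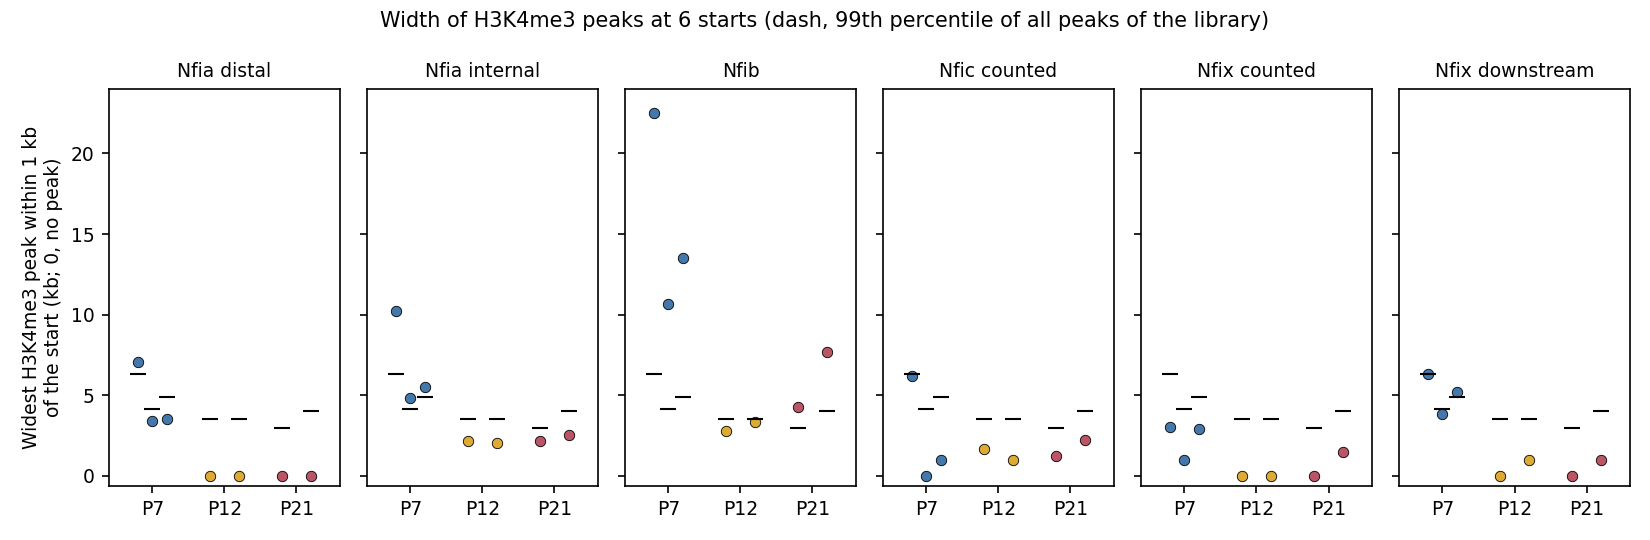
Width in kb of the widest H3K4me3 peak within 1 kb of 6 start sites of the family in each library, with the 99th percentile of that library's peak widths as a dash. Nfib exceeds the dash in every P7 and P21 library, and the distal Nfia start has no peak at P12 or P21.

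Granule cell maturation genes tied to nuclear factor I in earlier work, as regulated genes or as partners, were described as a list of 11. Of the 8 tested in H3K27me3, 6 were lower at P21 than at P7 and 1 was higher, where 23.5% of starts were lower and 25.4% higher. The median log2 fold change was −2.42 over the list and 0.34 over all starts. The 3 others did not pass the filter on low counts. The filter and the direction are not independent in this list or in the marker lists. A gene that falls can pass the filter through its P7 libraries, the same values that give the call. Ephb1 and Cntn2, for example, averaged 72.4 and 38.1 CPM at P7 and 9.82 and 9.87 CPM at P21. Marker lists of several cell types also held genes that were lower in H3K27me3: 6 of 6 genes tested for the cerebellar nuclei and unipolar brush cells (median −2.48), 5 of 6 of GABAergic interneurons (−1.67), 5 of 8 of the oligodendrocyte lineage (−1.67), 3 of 6 of Purkinje cells (−1.38) and 5 of 7 of the granule cell lineage (−1.61). In H3K4me3, 3 of 11 were higher and 1 was lower, beside 9% and 14.4% of all starts. At P12 against P7, 6 of the 8 were lower and 0 higher in H3K27me3 by edgeR, beside 22% and 14.4% of all starts, and 3 of 11 were higher and 2 lower in H3K4me3, beside 5.35% and 9.14%. At P21 against P12, 3 of the 8 were lower and 1 higher in H3K27me3, beside 3.06% and 0.923% of all starts, and 0 of 11 passed in H3K4me3.

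Wnt7a, a secreted ligand that granule cells release onto mossy fibre terminals, had 19.2 ± 6.96 CPM of H3K27me3 at P21 and 876 ± 286 CPM at P7 (SD, n = 5 each). Grin2c, the NMDA receptor subunit of mature granule cells, had 20.8 ± 7.94 CPM at P21 and 720 ± 115 CPM at P7. The log2 fold changes were −5.53 for Wnt7a and −5.12 for Grin2c (edgeR adjusted p = 7.32e-23 and 1.04e-21). H3K4me3 was higher at P21 by 1.61 at Wnt7a and by 2.32 at Grin2c on the log2 scale (adjusted p = 8.1e-06 and 2.4e-09). Bdnf, a neurotrophin, and its receptor gene Ntrk2 fell by 3.42 and 2.01 in H3K27me3 (adjusted p = 5.16e-17 and 3.32e-09). The guidance receptor Ephb1 and the axonal adhesion molecule Cntn2 fell by 2.83 and 1.94 (adjusted p = 3.88e-12 and 4.88e-06). The log2 fold changes of these 4 in H3K4me3 lay between −0.50 and 0.12, and none passed. Gabra6, a GABA-A receptor subunit specific to mature granule cells, was higher in H3K4me3 (1.38, adjusted p = 0.00555), with a value of 0.06 in H3K27me3 (adjusted p = 0.907).

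At P21 against P7, a pair of regulators changed in the opposite direction to Wnt7a and Grin2c, each called in a single mark. Nfatc4, a calcium-responsive transcription factor that represses maturation genes in immature granule cells, had 65.5 ± 14.3 CPM of H3K27me3 at P21 and 26.7 ± 7.30 CPM at P7 (log2 fold change 1.35, edgeR adjusted p = 3.4e-05), with −0.86 in H3K4me3 (adjusted p = 0.127). Etv1, an activity-dependent ETS factor that acts with Nfia on late granule cell genes, was lower in H3K4me3 (−1.28, adjusted p = 6.84e-05). It did not pass the filter on low counts in H3K27me3. Nfatc4 was also higher at P21 than at P12 in H3K27me3 (adjusted p = 0.000893).

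**Figure D4:**
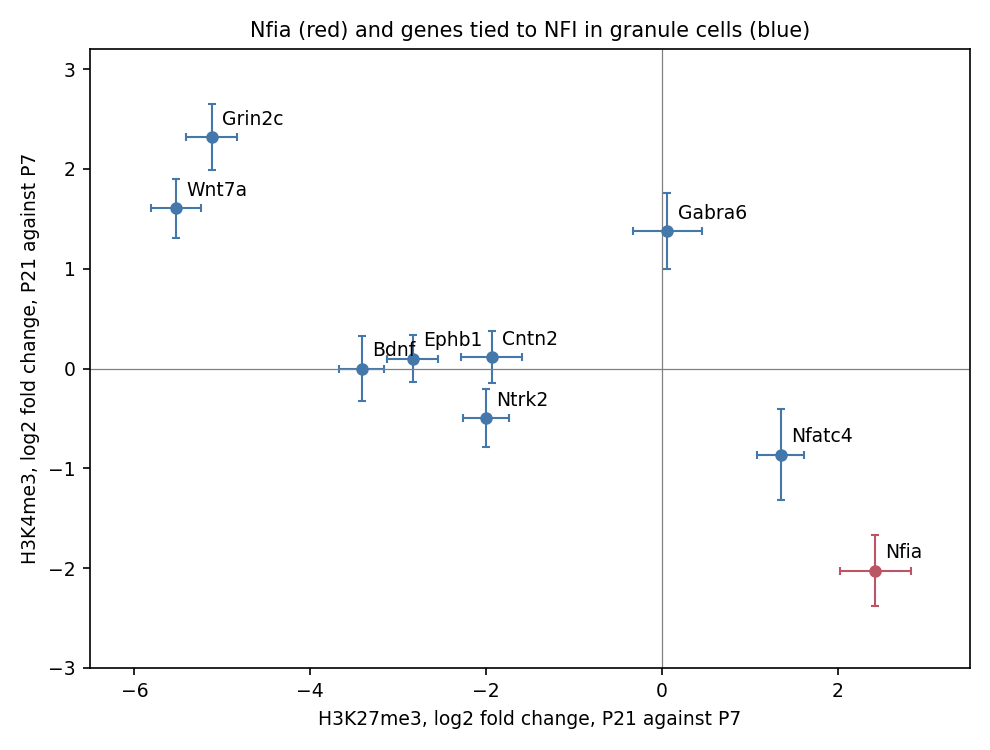
Log2 fold change of P21 over P7 in H3K27me3 against that in H3K4me3 for Nfia (red) and the associated genes tested in both marks (blue), with SE bars. Nfia lies at −2.03 in H3K4me3 and 2.42 in H3K27me3, opposite in both signs to Wnt7a and Grin2c.

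Markers of astrocytes and Bergmann glia, which express Nfia, changed in both directions. Of the 10, 5 were higher and 2 lower in H3K27me3 at P21 than at P7, beside 25.4% and 23.5% of all starts. Of the 9 tested in H3K4me3, 0 were higher and 3 lower by edgeR, beside 9% and 14.4% of all starts. Sox9, a glial transcription factor, had 47.2 ± 29.8 CPM of H3K27me3 at P21 and 2.55 ± 2.74 CPM at P7 (SD, n = 5 each), which gave 3.75 on the log2 scale (edgeR adjusted p = 2.42e-11). Its H3K4me3 changed by −1.79 (adjusted p = 0.000144). Hopx, of Bergmann glia, changed by 2.51 in H3K27me3 (adjusted p = 2e-08). Sox9 and Hopx do not stand for the whole list. Mean H3K27me3 fell from 370 CPM at P7 to 196 CPM at P21 at Gdf10, and from 22.1 to 10.5 CPM at Slc1a2. It was 69.7 CPM at P7 and 68.2 CPM at P21 at Aldh1l1. The summed H3K4me3 level of the list was 322 to 398 CPM at P7, 263 to 283 CPM at P12 and 230 to 305 CPM at P21. The summed H3K27me3 level was 491 to 633 CPM at P7, 348 to 629 CPM at P12 and 364 to 717 CPM at P21. No tested marker of the list was at 0 in H3K4me3 at P7, and the part of glial cells in the Nfia result was not tested.

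The starts most like Nfia over both marks, by the mean of a Pearson correlation of log2 CPM over the 7 H3K4me3 libraries and one over the 14 H3K27me3 libraries, were Fam111a (0.951), Fn1 (0.926) and Trit1 (0.911), out of 16747 starts eligible. Fn1, which encodes the matrix protein fibronectin, changed by 2.26 in H3K27me3 (edgeR adjusted p = 3.32e-08) and by −1.37 in H3K4me3 (adjusted p = 0.0112) at P21 against P7. The values of Fam111a were 1.63 (adjusted p = 9.78e-06) and −0.83 (adjusted p = 0.0722). The other members gave Fadd, Eif4a2 and Ctnna3 for Nfib (0.799 to 0.814), Usp31, Rictor and Pik3cb for Nfic (0.887 to 0.92), and Mpp6, Tsnax and Fbrsl1 for Nfix (0.848 to 0.865). These 3 members hold few H3K27me3 counts, and libraries of a stage share depth and background, so the correlations are descriptions.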

How the data were processed

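H3K4me3 and H3K27me3 ChIP-seq was analysed from 21 ChIP libraries, with 18 input libraries as background. The deposited table holds raw counts per transcription start site and library, and the peak lists, 39 in all, hold peaks called by the authors in each library with a score column. The submitters' processing notes name HOMER 4.11, ChIPseeker 1.30.3 and the mm10 build; the aligner and the counting window are not stated in the sources used. Peak scores were not used, only positions. Per the labels, H3K27me3 replicates 1 and 2 of a stage share an input library and later ones have their own.

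Counts were fitted over all starts with edgeR 4.0.16 in R 4.3.3, with 1 fit per mark over the 3 stages. The fits used TMM scaling, the edgeR filter on low counts, its robust quasi-likelihood test and its default prior count. The H3K27me3 fit had a term for the input arrangement. The SE given with an edgeR log2 fold change was derived from the test, as its absolute value divided by the square root of the F statistic. The threshold was a Benjamini-Hochberg adjusted p of 0.05. Levels are CPM. Differences of log2 CPM between members, with a prior count of 2, and peak coverage were compared by exact permutation tests over libraries (Python 3.11.15). Peaks were read within 1 kb of a start, and a consensus needed 2 libraries. The procedure was tested on simulated counts.

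The alternatives were library totals alone, DESeq2 1.42.0 and its size factors, trended (loess, span 0.3; limma 3.58.1) offsets, no filter, starts with a peak only, the replicate number as a block, subsets of replicates, and leaving out each library. Same-numbered libraries deviated together in H3K27me3 between P12 and P21, where all 4 pairs correlated at 0.32 to 0.625. Replicates 1 and 2 also did so across numbers, at 0.478 for P12 replicate 2 with P21 replicate 1 and 0.332 for P12 replicate 1 with P21 replicate 2. For them a pairing by number cannot be told apart from the shared input arrangement. The labels state no pairing. The members and lists were chosen with earlier results of these data known. The text names the 4 members, associated genes past the threshold in P21 against P7, at most 2 genes of a marker list with the smallest p, and for each member the 3 starts with the highest mean correlation that reach 10 CPM in both marks. The granule cell lineage markers Atoh1, Zic1, Neurod1 and Neurod2 and the antisense gene E130114P18Rik were named after their values were seen. So were the glial markers Gdf10, Slc1a2 and Aldh1l1.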

Additional observations from a re-analysis of the deposited data

Results flagged for a closer look

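H3K27me3 at Nfix in P21 replicate 4 stood apart from the other P21 libraries. It was 13.5 CPM, against 0, 2.22, 2.82 and 0 CPM in the others and a median of 2.22 CPM, and its gap to the next library was 0.791 of the range of the group. It rests on 13 counts. Of 12 groups of members and stages examined this was the 1 that stood out, and chance alone flags about 1 in 20. Nfic was also highest in that library, at 15.6 CPM. The cause was not tested.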

How the results depend on the processing

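The H3K4me3 loss (−2.03) and the H3K27me3 gain (2.42) at Nfia in P21 against P7 kept direction and call under every alternative that included them, with ranges without 1 library of −2.25 to −1.59 and 2.18 to 2.77. The H3K27me3 run on starts with a peak did not include Nfia, whose counted start had no consensus H3K27me3 peak. Of all values recomputed, 535 kept direction and call, 24 lost and 2 gained the call, 31 moved and 16 turned sign. The H3K4me3 call of Nfib at P21 (−0.71) was lost with library totals alone (−0.50), trended scaling (−0.21) and starts with a peak only (−0.27), and ranged from −0.82 to −0.58 without 1 library. Signs turned for Nfic H3K4me3 at P21 under trended scaling (0.10) and starts with a peak only (0.18), and for Nfib and Nfic H3K27me3 with replicates 3 and later only (0.11 and 0.06, P21 against P7). Without 1 library, H3K4me3 ranged from −0.93 to 0.07 for Nfix (P21 against P7), from −0.26 to 1.36 for Nfia and −0.00062 to 0.78 for Nfic (P21 against P12), and from −3.40 to −1.82 for Nfia (P12 against P7). For P12 against P7, Nfix ranged from −1.91 to −0.98, Nfib from −0.67 to −0.41 and Nfic from −1.07 to −0.39, the last pair passing without P7 replicate 2 (adjusted p = 0.0477 and 0.0328). The H3K27me3 call of Nfia at P12 was lost with replicates 3 and later only (1.53, adjusted p = 0.0998). Without 1 library, pair differences ranged from 2.08 to 2.82 for Nfia minus Nfib, 2.87 to 3.81 for Nfia minus Nfix and −0.17 to 0.49 for Nfib minus Nfic. Nfic coverage by H3K4me3 peaks changed by 0.956 points in the gene body alone and by −6.24 to 0.996 without 1 library.

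Counts of called starts moved as follows. H3K4me3 P21 against P7 (4847) gave 2945 with DESeq2, 1380 with trended scaling and 957 among starts with a peak, and 658 to 11460 without 1 library. P12 against P7 (3006) gave 1859, 770 and 602 under the same settings, and 71 to 8211 without 1 library. H3K27me3 P21 against P7 (8843) gave 15023 with library totals alone, 4950 with replicates 3 and later and 4569 among starts with a peak, and P12 against P7 (6585) gave 13571, 3048 and 3789. P21 against P12 (720) gave 1212 with DESeq2, 254 with replicates 3 and later, 366 without the input arrangement term, 1336 among starts with a peak and 416 to 944 without 1 library. Library totals alone set the median log2 fold change over all starts at 1.38 for H3K27me3 and 0.40 for H3K4me3 (0.34 and 0.19 under TMM). The cause of these shifts was not tested.

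The replicate numbers were not taken as pairs in comparisons with P7 or in H3K4me3, since not every pair of same-numbered libraries correlated over 0.1 and the labels name no shared animal or day. The values reported for H3K27me3 P21 against P12 also come from the fit without pairs, although same-numbered libraries correlated there. The replicate block, run as an alternative, changed no call of a member in that comparison. Same-numbered H3K27me3 libraries of different stages correlated at −0.107 to 0.625 (median 0.27, 13 pairs), and differently numbered ones at −0.506 to 0.478 (median −0.0784, 52 pairs). Same-numbered H3K4me3 libraries correlated at −0.301 to 0.0704 (6 pairs). With the replicate block, the H3K4me3 counts were 1304 at P21 and 664 at P12 against P7, and log2 fold changes at P21 were −0.81 for Nfib (adjusted p = 0.061), 0.01 for Nfic and 0.17 for Nfix. The P12 call of Nfix was lost (−0.96, adjusted p = 0.207). The block changed no H3K27me3 call of Nfia and gave 9275, 6810 and 620 called starts for P21 against P7, P12 against P7 and P21 against P12. Of the libraries, 8 of 14 in H3K27me3 and 0 of 7 in H3K4me3 correlated best with their own number. Depth limits H3K27me3 at Nfib, Nfic and Nfix, which held 0 to 16 counts a library, so modest changes there were not detectable.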
